A study of Homo sapiens with 12 samples.

Results

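The genes described here are 38 genes of the hypoxia response and of glycolysis, chosen by name from what they are known to do, with earlier results of these arrays known. A gene was measured where at least 1 probe set of the array carried its symbol alone, and the probe set with the highest mean stood for the gene. By this rule 37 of the 38 genes were measured, of 18404 genes in all, and EGLN2 was not analysed here. The 37 genes comprised 6 genes for the hypoxia-inducible factors (HIF) and the proteins that control their turnover, 15 targets of HIF outside glucose use, and 16 glucose transporters and glycolytic enzymes.

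Cells adapt to low oxygen mainly through HIF, a pair of an oxygen-sensitive alpha subunit (HIF1A or EPAS1) with a stable partner (ARNT). When oxygen is plentiful, prolyl hydroxylases of the EGLN family mark the alpha subunit and the VHL ubiquitin ligase directs its destruction, so the protein can change without any change in its own RNA. When oxygen is scarce, HIF binds short promoter elements and raises genes for glucose uptake, glycolysis, collagen cross-linking, vessel growth and mitochondrial turnover, and ERO1A, the gene overexpressed in these cells, is itself a known HIF target.

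RNA levels came from 12 arrays of HEK 293 Flp-In T-REx cells, a human embryonic kidney line with an integration site for a transgene and a tetracycline repressor that keeps the transgene off until doxycycline is added. Of the 2 stable lines, the WT line carries Ero1α-WT and the mutant line carries Ero1α-C104A/C131A. Ero1α is an oxidase of the endoplasmic reticulum (ER) that drives disulfide formation, and the mutant form has regulatory cysteines replaced by alanine. Each line was grown without doxycycline (uninduced) or with doxycycline for 24 h (induced), which gives 4 groups of 3 biological replicates lettered A, B and C. All groups, the uninduced controls included, carry the transgene and the repressor and were grown with hygromycin B and blasticidin. Arrays of doxycycline-treated cells without a transgene were not analysed here, so an effect of doxycycline and an effect of the transgene cannot be told apart. Each construct is present as 1 stable line, so a difference between the lines cannot be assigned to the mutation, to the clone or to the integration event, which cannot be told apart. The labels name no oxygen level, and all comparisons are among cultures under the same stated growth conditions. The labels and the table give no scan date or batch.

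Values are log2 levels, and a difference of 1 is a doubling. Levels of different genes are not compared with each other, because each probe set has its own response. The median log2 level of the arrays ran from 6.361 to 6.429, and the r between replicates over all probe sets was 0.9919 to 0.9958. ERO1A checked the labels: its log2 level was 10.42 to 10.62 in the uninduced and 12.66 to 12.68 in the induced WT arrays, and 10.05 to 10.15 and 12.49 to 12.62 in those of the mutant line. The probe set is not known to separate the endogenous from the introduced RNA. Of the epithelial and neurofilament genes known from HEK 293 cells, KRT8, EPCAM and NEFL were well above the probe set median of 6.39, with group means of 10.54 to 11.02, 9.92 to 10.09 and 10.28 to 10.52. CDH1 was closer to it, at 6.89 to 7.05, and NEFM was below it, at 5.16 to 5.33. The kidney lineage genes PAX2, PAX8 and LHX1 were near that median, with group means of 6.38 to 6.79, and the leukocyte gene PTPRC was at 3.18 to 3.27. The arrays give no absolute detection call. Of 23 cell type markers measured, 4 differed between the lines before induction, with KRT8, KRT18 and the fibroblast gene LUM higher and the neuronal filament gene INA lower in the mutant line. After induction 4 differed, with KRT8, LUM and NEFL higher and INA lower, and 0 of 23 passed on induction in either line (limma). Over all genes 21.4% differed between the lines before induction and 21.6% after it, and the share among the markers was not above that. P-values measure the spread between these cultures, and the labels do not say how the biological replicates were separated. In bulk RNA, fewer cells expressing a gene and less RNA per cell cannot be told apart.

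Inducing either form of Ero1α for 24 h was followed by no change past the threshold in any of the 37 genes. In the WT line 0 of 37 genes passed an adjusted p of 0.05 (limma, Benjamini-Hochberg over all 18404 genes, of which 0.114% passed), and 0 had an unadjusted p under 0.05. Their log2 changes in the WT line ran from -0.08 to 0.07, with a median of -0.00 against 0.00 over all genes. In the mutant line 0 of 37 passed, against 0.326% of all genes, and 2 had an unadjusted p under 0.05. Changes there ran from -0.16 to 0.22, with a median of -0.03 against -0.01 over all genes. The same test called ERO1A, which rose 4.37-fold in the WT line and 5.38-fold in the mutant line (adjusted p of 1.42e-08 and 3.08e-09, limma). Of 10 listed ER stress genes, 8 rose in the WT line and 9 in the mutant line, with median log2 changes of 0.55 and 0.81. The WT calls used the spread shared by all 12 arrays. With the WT arrays alone 0 of the 10 passed, without or with a replicate block (smallest adjusted p of 0.0577 and 0.144, limma), and 9 had an unadjusted p under 0.05 in each. ERO1A passed in both fits. Among them the chaperone gene HSPA5 rose 1.59-fold and 2.20-fold (adjusted p of 0.000597 and 1.32e-06, limma).

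The intervals gave the size of change on induction that these arrays leave possible for the hypoxia and glycolysis genes. Across the 37 genes in the WT line, the 95% intervals of the fold change lay between 0.840, the lower bound of the collagen lysyl hydroxylase PLOD2, and 1.21, the upper bound of the aldolase ALDOC. In the mutant line they lay between 0.818 for EPAS1 and 1.31 for the glucose transporter SLC2A3. The groups before and after induction did not overlap for 2 of 37 genes in the WT line, HK1 and NDRG1, against 9.08% of all genes. In the mutant line they did not overlap for 7 genes, against 11.5%, namely SLC2A3, TPI1, EPAS1, BNIP3, BNIP3L, NDRG1 and PDK1.

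**Figure D1:**
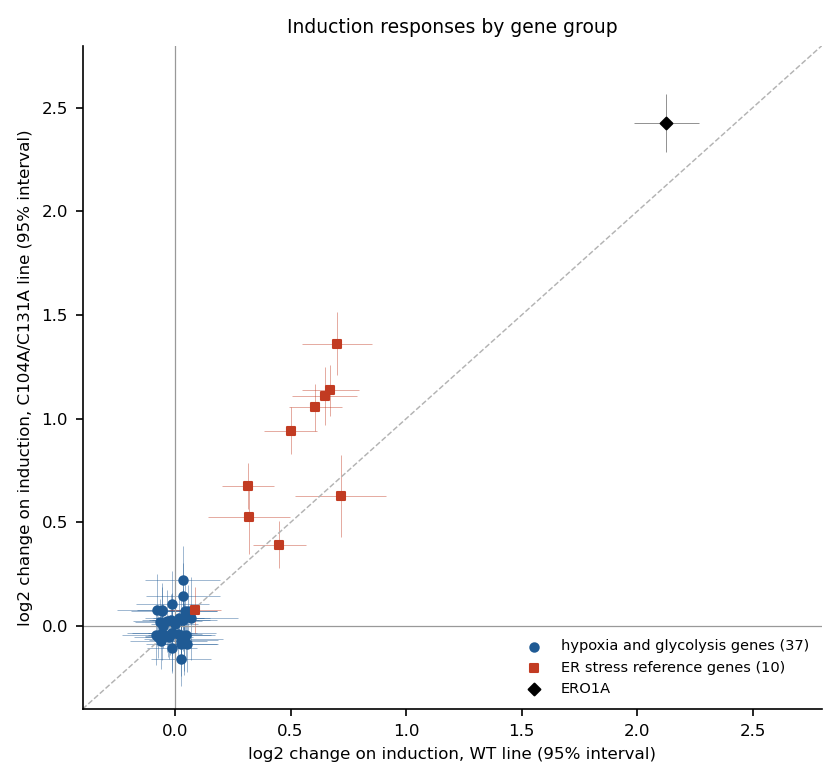
Log2 change on induction in the WT line (horizontal axis) against that in the mutant line (vertical axis), with 95% intervals from limma, for the 37 hypoxia and glycolysis genes (circles), 10 ER stress reference genes (squares) and ERO1A (diamond); the dashed line marks equal change. The circles gather around 0 on both axes, from -0.16 to 0.22 at the extremes, while 8 and 9 of the squares passed the threshold upward and ERO1A stands at 2.13 and 2.43.

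The largest induction changes among the 37 genes were in the mutant line and did not pass. SLC2A3, the high-affinity glucose transporter GLUT3, had log2 levels of 7.83, 7.70 and 7.90 before and 7.97, 8.13 and 7.99 after induction of the mutant, in replicates A, B and C. Every induced array was above every uninduced one, and the log2 change was 0.22 (95% interval 0.06 to 0.39, adjusted p of 0.643, limma). EPAS1, which encodes the HIF-2 alpha subunit, was at 6.70, 6.89 and 6.76 before and 6.61, 6.67 and 6.60 after, a log2 change of -0.16 (95% interval -0.29 to -0.03, adjusted p of 0.754). In the WT line the same genes changed by 0.03 and 0.02, and their groups overlapped. The test of whether induction acted differently in the 2 lines called 0 of the 37 genes and 0% of all genes. At an unadjusted p under 0.05 it held only EPAS1 among the 37, with a difference of -0.18 (adjusted p of 0.982, limma).

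The lines themselves differed. Before induction, 16 of the 37 genes (43.2%) passed the threshold between the mutant and the WT line, 15 higher and 1 lower in the mutant line. Over all genes 21.4% passed, 10.8% higher and 10.5% lower. Since the genes were chosen with earlier results known, the shares are set side by side as a description. After induction 16 of 37 passed again, 15 higher and 1 lower, against 21.6% of all genes, 10.8% higher and 10.9% lower. Over both states 17 genes passed at least once: 15 in both, VHL before and SLC2A3 after induction alone. The change of the line difference on induction did not pass for VHL (-0.09, adjusted p of 0.982) or SLC2A3 (0.19, adjusted p of 0.982, limma). The median log2 difference over the 37 genes was 0.04 before and 0.07 after induction. Brighter genes passed more often: among the 11168 genes with a mean level above 6.39, 30.3% passed before induction and 15.1% were higher in the mutant line. Of the 36 hypoxia and glycolysis genes above that level, 44.4% passed and 41.7% were higher. The 3 arrays of each line did not overlap for 24 of 37 genes before induction and for 24 after, against 37.4% and 36.3% of all genes. Among the genes with a mean level above 6.39 these shares were 50.6% and 47.5%.

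**Figure D2:**
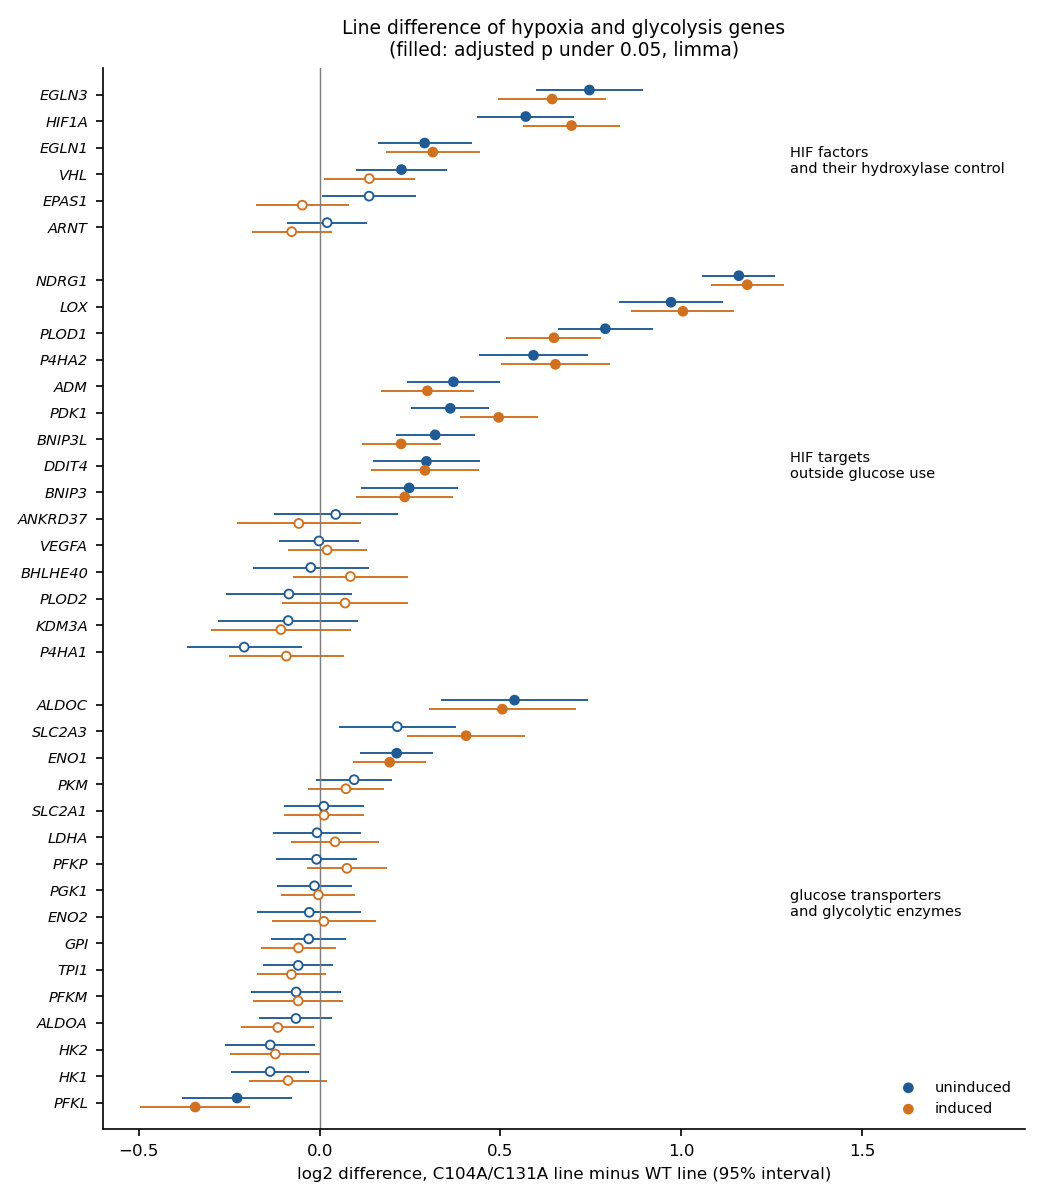
Log2 difference between the mutant and the WT line (horizontal axis, mutant minus WT, with 95% intervals from limma) for each of the 37 genes, uninduced and induced, grouped by role; filled points have an adjusted p under 0.05. Filled points sit mostly to the right of 0 among the HIF factors and the HIF targets outside glucose use, with NDRG1 at 1.16 and 1.18, whereas the open points of the glycolytic enzymes crowd around 0.

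By role, most of the HIF and hydroxylase genes and of the targets outside glucose use passed in at least 1 state. The glycolytic genes passed about as often as all genes, and the contrast between roles was not tested. Over all genes 21.4% passed before and 21.6% after induction, and 30.3% and 30.2% of those with a mean level above 6.39. Of the 6 HIF and hydroxylase genes, 4 were higher in the mutant line before and 3 after induction (66.7% and 50%). Of the 15 targets outside glucose use, 9 were higher in each state and 0 lower (60%). Of the 16 glucose transporters and glycolytic enzymes, 2 were higher and 1 lower before induction (18.8%), and 3 were higher and 1 lower after it (25%).

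HIF1A, the oxygen-labile subunit itself, had log2 levels of 10.31, 10.33 and 10.38 in the uninduced WT arrays and 10.91, 10.88 and 10.95 in the uninduced mutant arrays. With induction the values were 10.24, 10.25 and 10.38 in the WT line and 10.88, 10.99 and 11.08 in the mutant line. All 6 mutant arrays, the lowest at 10.88, lay above all 6 WT arrays, the highest at 10.38. HIF1A RNA was 1.48-fold higher in the mutant line before induction (95% interval 1.35 to 1.63, adjusted p of 4.60e-05, limma) and 1.62-fold higher after it (1.48 to 1.78, adjusted p of 1.10e-05). Over both states EPAS1, the alternative alpha subunit, was at 6.60 to 6.73 in the WT and 6.60 to 6.89 in the mutant line. Before induction every mutant array of EPAS1 lay above every WT array. The values were 6.601, 6.655 and 6.688 in the WT and 6.704, 6.892 and 6.758 in the mutant line. After induction the lines overlapped. The log2 differences of EPAS1 were 0.14 and -0.05, neither past the threshold. The stable partner ARNT was at 9.17 to 9.29 and 9.13 to 9.28, with differences of 0.02 and -0.08. The arrays measured RNA only, and the HIF proteins were not measured.

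Of the genes measured for proteins that mark HIF for destruction, EGLN3 and EGLN1 were higher in the mutant line in both states and VHL before induction. EGLN3, a prolyl hydroxylase gene that HIF itself induces, had levels of 7.44, 7.29 and 7.36 in the WT and 8.13, 8.01 and 8.19 in the mutant line before induction, and 7.46, 7.30 and 7.44 and 8.11, 7.995 and 8.03 after it. The lines were well apart in both states, by 1.68-fold (95% interval 1.51 to 1.86, adjusted p of 1.34e-05, limma) and 1.56-fold (1.41 to 1.73, adjusted p of 4.07e-05). EGLN1, the main hydroxylase under normal oxygen, was at 9.15, 9.14 and 9.01 against 9.39, 9.37 and 9.42, and at 8.95, 9.06 and 9.12 against 9.33, 9.33 and 9.41 with induction. These smaller gaps, 1.22-fold and 1.24-fold, also left the lines without overlap (adjusted p of 0.00406 and 0.00250, limma). VHL, the substrate-binding part of the ligase, was at 8.72, 8.88 and 8.78 in the WT and 9.02, 8.997 and 9.05 in the mutant line before induction, a 1.17-fold difference (adjusted p of 0.0148, limma). After induction its values were 8.88, 8.85 and 8.79 against 8.997, 9.03 and 8.91, and 1.10-fold did not pass (adjusted p of 0.119). The VHL call before induction was lost without replicate C of the uninduced mutant arrays (adjusted p of 0.0580, limma).

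Among the targets, NDRG1, a growth and stress-response gene widely used as a marker of hypoxia, showed the largest line difference of the 37 genes. Its log2 levels were 10.04, 10.07 and 10.07 in the WT and 11.27, 11.19 and 11.20 in the mutant arrays before induction, and 10.02, 9.98 and 9.95 and 11.18, 11.16 and 11.16 after it. More than a log2 unit separated the lowest mutant array, 11.16, from the highest WT array, 10.07. The mutant line was 2.23-fold higher before (95% interval 2.08 to 2.39, adjusted p of 2.61e-08, limma) and 2.27-fold higher after induction (2.12 to 2.43, adjusted p of 2.08e-08). ADM encodes adrenomedullin, a secreted vasodilator peptide, and was at 8.01, 8.004 and 8.02 against 8.33, 8.37 and 8.45, then 8.07, 8.04 and 8.01 against 8.29, 8.46 and 8.27. Its differences of 1.29-fold and 1.23-fold passed in both states (adjusted p of 0.000723 and 0.00312, limma). VEGFA, the vascular growth factor and a textbook HIF target, lay between 8.42 and 8.55 in all 12 arrays. The intervals of its line difference, 0.926 to 1.08-fold before and 0.940 to 1.09-fold after induction, lie wholly below the differences of NDRG1.

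Several genes of collagen maturation were higher in the mutant line, and in each pair of related enzymes only 1 of the pair passed in the main comparison. LOX, the extracellular enzyme that cross-links collagen and elastin, was at 7.02, 7.19 and 7.15 in the WT and 8.09, 8.04 and 8.14 in the mutant line before induction, and at 7.06, 7.22 and 7.19 and 8.16, 8.23 and 8.10 after it. The lines were apart by 1.96-fold (95% interval 1.78 to 2.16, adjusted p of 1.51e-06, limma) and 2.01-fold (1.82 to 2.21, adjusted p of 1.25e-06). The fibroblast gene LUM, which encodes a collagen-binding matrix protein, also passed as higher in the mutant line (adjusted p of 8.02e-05 and 0.000142, limma). Its group means were 3.48 and 3.50 in the WT and 5.09 and 4.99 in the mutant line, all below 6.39 and near those of the leukocyte markers PTPRC (3.18 to 3.27) and CD3E (5.00 to 5.14), so no fold is given. Of the 6 fibroblast markers measured LUM was the only one past the threshold between the lines. The log2 of their summed level was 8.26 to 8.48 in the uninduced WT arrays and 8.46 to 8.55 in the uninduced mutant arrays, and its part in the LOX difference was not tested.

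PLOD1, which hydroxylates lysines of collagen in the ER, was at 8.92, 8.96 and 9.03 in the WT and 9.84, 9.73 and 9.72 in the mutant line before induction. After it the values were 9.07, 9.01 and 8.99 and 9.74, 9.70 and 9.58. These were differences of 1.73-fold and 1.57-fold (adjusted p of 3.54e-06 and 1.58e-05, limma), with no overlap of the lines. Its relative PLOD2, the member of the family best known as hypoxia-induced, was at 8.98 to 9.32 in the WT line and 9.04 to 9.26 in the mutant line, with differences of -0.09 and 0.07 that did not pass. P4HA2, a catalytic subunit of collagen prolyl 4-hydroxylase, was at 7.19, 7.43 and 7.41 in the WT and 7.89, 7.94 and 7.97 in the mutant line before induction, and 7.32, 7.34 and 7.26 and 7.89, 8.04 and 7.95 after it. The mutant line was higher by 1.51-fold and 1.57-fold (adjusted p of 7.65e-05 and 3.83e-05, limma). The other catalytic subunit gene, P4HA1, leaned the opposite way, at -0.21 and -0.09 on the log2 scale, and did not pass (adjusted p of 0.0635 and 0.429, limma). Before induction it passed as lower in several alternative settings. Among these were weights per array, dim genes left out and a trended robust prior (adjusted p of 0.00317, 0.0278 and 0.0324, limma). It also passed without replicate A of the uninduced or C of the induced WT arrays (adjusted p of 0.0352 and 0.0362, limma). Within each array, the log2 level of P4HA2 minus that of P4HA1 was 0.80 higher on average in the mutant line before induction and 0.74 higher after it. For PLOD1 minus PLOD2 the corresponding values were 0.88 and 0.58, and in neither pair did the arrays of the lines overlap.

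**Figure D3:**
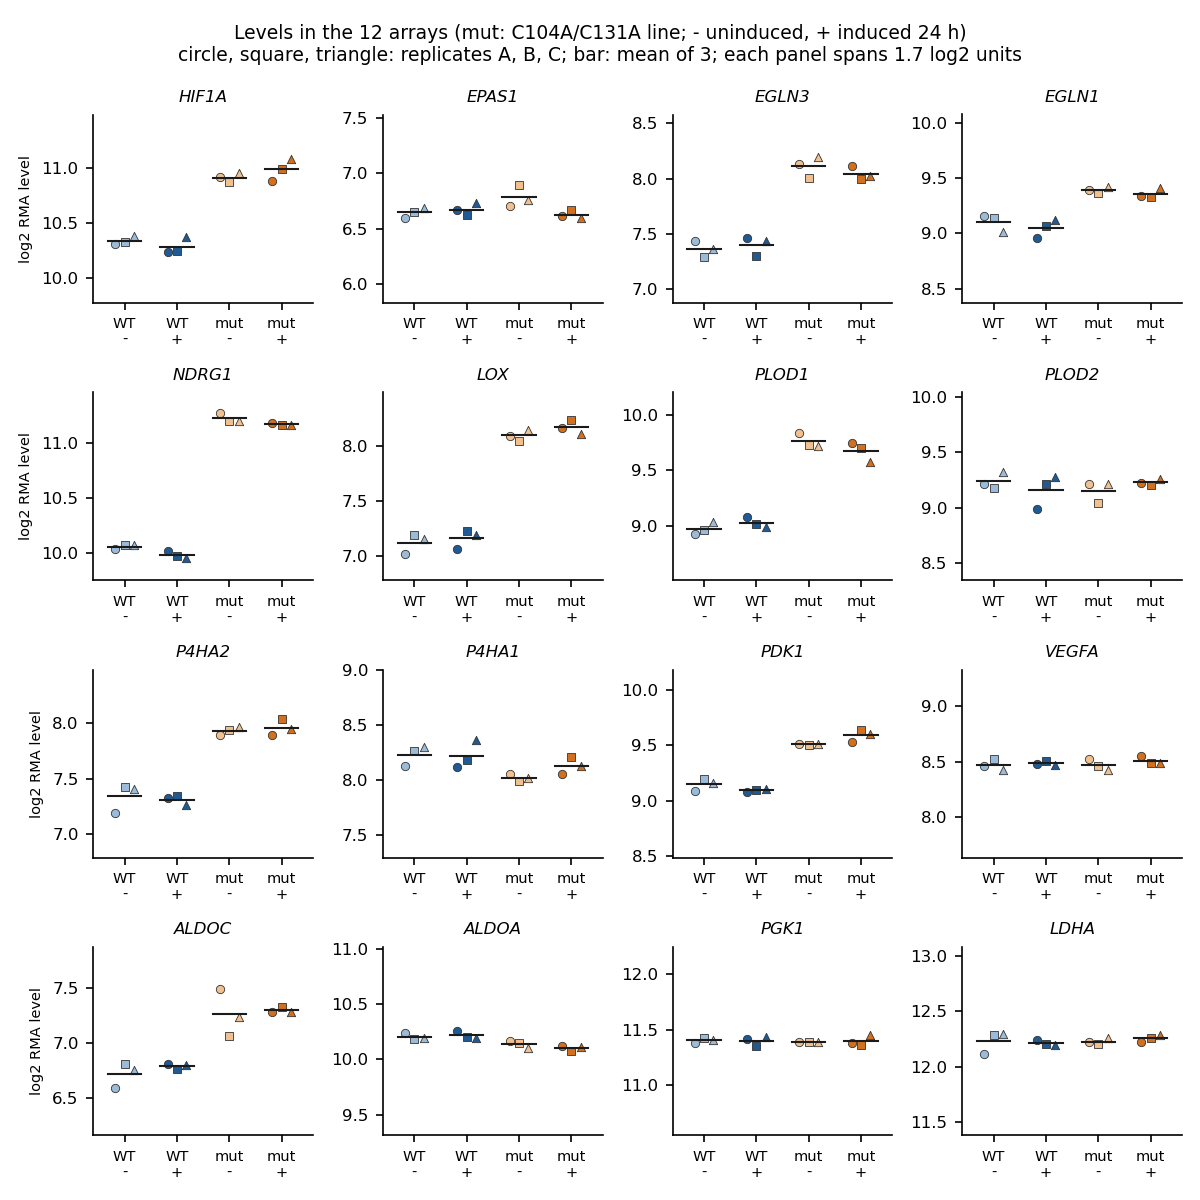
Log2 level (vertical axis, 1.7 log2 units in every panel) of 16 of the genes in each of the 12 arrays, with the WT line in blue and the mutant line in orange, paler before and darker after induction; symbols mark replicates A, B and C and bars the mean of 3. HIF1A, EGLN3, EGLN1, NDRG1, LOX, PLOD1, P4HA2, PDK1 and ALDOC step up between the lines, and none of them passed the threshold on induction. In the mutant line every induced array of PDK1 lies above every uninduced one, and every induced array of NDRG1 below every uninduced one. The related PLOD2, and VEGFA, PGK1 and LDHA, have lines that overlap in each state. The lines of the related EPAS1 and P4HA1 overlap after induction and not before it. Before induction the mutant arrays lie above the WT arrays for EPAS1 and below them for P4HA1. All mutant arrays of ALDOA lie below all of its WT arrays.

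PDK1, BNIP3L and BNIP3, whose products act at mitochondria, were higher in the mutant line in both states. PDK1, the kinase that restrains entry of pyruvate into the citric acid cycle, was at 9.09, 9.20 and 9.16 against 9.52, 9.51 and 9.51 before induction and 9.07, 9.10 and 9.11 against 9.53, 9.64 and 9.60 after it. It was 1.28-fold (adjusted p of 0.000248) and 1.41-fold (adjusted p of 2.60e-05) higher by limma, and the lines did not overlap. BNIP3L, a receptor for the removal of mitochondria by autophagy, was at 10.07, 10.04 and 10.09 against 10.46, 10.34 and 10.35, then 10.05, 10.06 and 10.04 against 10.25, 10.32 and 10.26. The related BNIP3 was at 9.96, 9.80 and 9.83 against 10.15, 10.10 and 10.08, then 9.79, 9.71 and 9.89 against 10.01, 10.04 and 10.07. Both were higher in the mutant line, BNIP3L by 1.25-fold and 1.17-fold (adjusted p of 0.000677 and 0.00674) and BNIP3 by 1.19-fold and 1.18-fold (adjusted p of 0.0128 and 0.0167, limma). Before induction the BNIP3 call was lost without replicate B of the uninduced WT arrays (adjusted p of 0.0592) or A of the uninduced mutant arrays (0.0533, limma). After it, the call was lost without replicate B of the induced WT (adjusted p of 0.0779) or C of the induced mutant arrays (0.0541, limma). DDIT4, an inhibitor of mTORC1 signalling raised by several stresses besides hypoxia, was at 7.23, 7.30 and 7.20 against 7.65, 7.45 and 7.52, then 7.31, 7.25 and 7.27 against 7.65, 7.61 and 7.45. Its differences were 1.23-fold and 1.22-fold (adjusted p of 0.00825 and 0.00892, limma). The remaining targets, the histone demethylase KDM3A, the transcriptional repressor BHLHE40 and the ankyrin repeat gene ANKRD37, had log2 differences of -0.09, -0.02 and 0.04 before induction and -0.11, 0.09 and -0.06 after it. None of the 3 passed, and the mean of ANKRD37 was below 6.39, the only such gene of the 37.

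Most glycolytic genes, like most of all genes, did not pass between the lines. The shares that passed before and after induction were 18.8% and 25%, near the 21.4% and 21.6% of all genes. Of the 16 genes of glucose entry and glycolysis, 12 passed in neither state, and the largest of their log2 differences was -0.14, for the hexokinase HK1 before induction. Its relative HK2, the hypoxia-induced hexokinase, was at -0.14 and -0.12. PGK1, phosphoglycerate kinase, lay between 11.36 and 11.45 in all 12 arrays. LDHA, the lactate dehydrogenase subunit that regenerates NAD for glycolysis, lay between 12.12 and 12.29. For these 2 textbook HIF targets the 95% intervals of the line difference before induction were 0.922 to 1.06-fold and 0.914 to 1.08-fold. SLC2A1, the main glucose transporter, was at 9.88 to 9.99 in the WT line and 9.86 to 10.01 in the mutant line, with differences of 0.01 and 0.01. The isomerases GPI and TPI1, the phosphofructokinases PFKM and PFKP, the aldolase ALDOA, the enolase ENO2 and pyruvate kinase PKM had log2 differences of -0.12 to 0.10 over both states, none past the threshold. The 6 arrays of each line did not overlap for HK1, PKM and ALDOA, at 8.07 to 8.15 in the WT against 7.95 to 8.05 in the mutant line, at 12.16 to 12.19 against 12.22 to 12.35 and at 10.18 to 10.26 against 10.08 to 10.17. Probe sets of PGK1, LDHA, TPI1, PKM, ALDOA and ENO1 may also bind RNA of near-identical processed copies of these genes, which the arrays cannot separate.

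In this role 4 genes passed in at least 1 state. ALDOC, the brain-type aldolase, was at 6.59, 6.82 and 6.76 against 7.49, 7.06 and 7.24 before and 6.81, 6.77 and 6.80 against 7.29, 7.33 and 7.29 after induction. It was 1.45-fold and 1.42-fold higher in the mutant line (adjusted p of 0.00129 and 0.00199, limma). ENO1, the ubiquitous enolase, was at 12.76, 12.79 and 12.80 against 12.96, 13.02 and 13.01, then 12.78, 12.76 and 12.73 against 12.94, 12.99 and 12.91. These narrow ranges did not overlap, and ENO1 was 1.16-fold and 1.14-fold higher (adjusted p of 0.00595 and 0.0102, limma). SLC2A3 was at 7.59, 7.58 and 7.61 against 7.83, 7.70 and 7.90 before induction, a 1.16-fold difference with an adjusted p of 0.0610 by limma, which passed without replicate A or C of the induced WT arrays or B of the uninduced mutant arrays (adjusted p of 0.0476, 0.0444 and 0.0408). With induction it was at 7.75, 7.64 and 7.50 against 7.97, 8.13 and 7.99, and the 1.32-fold difference passed (adjusted p of 0.00200). Its probe set may also bind RNA of the close copy SLC2A14. PFKL, the liver-type phosphofructokinase, was the only gene of the 37 that passed the threshold as lower in the mutant line. Its levels were 9.47, 9.31 and 9.35 against 9.21, 9.12 and 9.12 before and 9.43, 9.39 and 9.39 against 9.17, 9.11 and 8.91 after induction, 0.854 and 0.788 times the WT level (adjusted p of 0.0362 and 0.00379, limma). The PFKL call before induction was lost in 8 of 23 alternative settings. Among these were leaving out replicate A or C of the uninduced WT arrays (adjusted p of 0.109 and 0.0697), B of the induced WT arrays (0.0525) and B or C of the uninduced mutant arrays (0.104 and 0.114, limma).

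The promoters of these genes were read for the core of the HIF binding element, since the lines differed for some known HIF targets and not for others. RefSeq gives the 250 bases before the first listed start, in build GRCh38.p14, for 32 of the 37 genes. The letters ACGTG were searched on both strands, and so were the letters GCGTG. Of 14230 tested genes with an entry, 21.1% held ACGTG, 39.7% held GCGTG and 51.1% held either. Among the 32 genes, 15 held ACGTG (46.9%), 13 held GCGTG (40.6%) and 22 held either (68.8%). Of the 13 that passed between the lines, 5 held ACGTG and 8 held GCGTG, with 10 holding either (76.9%). Of the 19 that did not pass, 10 held ACGTG and 5 held GCGTG, with 12 holding either (63.2%). The first 3 sequences below belong to genes higher in the mutant line whose promoters hold the letters, EGLN3 was higher without holding them, and LDHA and PGK1 hold them and did not pass. Capitals mark each match in either orientation, so a match on the opposite strand reads CACGT or CACGC, and CACGTG is a match on both strands at once.
LOX: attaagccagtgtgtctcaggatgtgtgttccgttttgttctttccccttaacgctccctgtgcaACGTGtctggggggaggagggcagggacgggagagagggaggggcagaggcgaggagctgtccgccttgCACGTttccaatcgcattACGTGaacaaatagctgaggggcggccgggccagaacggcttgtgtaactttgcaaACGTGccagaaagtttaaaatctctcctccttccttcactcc
DDIT4: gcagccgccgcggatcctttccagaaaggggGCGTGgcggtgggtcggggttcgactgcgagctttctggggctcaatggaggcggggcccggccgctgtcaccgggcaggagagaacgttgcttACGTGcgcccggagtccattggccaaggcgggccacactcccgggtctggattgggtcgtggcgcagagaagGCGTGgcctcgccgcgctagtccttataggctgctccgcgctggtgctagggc
BNIP3: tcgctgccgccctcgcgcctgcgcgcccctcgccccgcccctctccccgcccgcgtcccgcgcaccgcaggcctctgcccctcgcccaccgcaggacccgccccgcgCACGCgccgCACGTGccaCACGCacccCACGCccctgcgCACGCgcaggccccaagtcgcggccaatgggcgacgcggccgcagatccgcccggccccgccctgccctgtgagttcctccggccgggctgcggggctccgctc
EGLN3: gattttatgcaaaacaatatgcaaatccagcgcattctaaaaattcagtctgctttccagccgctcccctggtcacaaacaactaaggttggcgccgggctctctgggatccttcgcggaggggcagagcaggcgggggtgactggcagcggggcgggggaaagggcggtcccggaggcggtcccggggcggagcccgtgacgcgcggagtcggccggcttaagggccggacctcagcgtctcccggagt
LDHA: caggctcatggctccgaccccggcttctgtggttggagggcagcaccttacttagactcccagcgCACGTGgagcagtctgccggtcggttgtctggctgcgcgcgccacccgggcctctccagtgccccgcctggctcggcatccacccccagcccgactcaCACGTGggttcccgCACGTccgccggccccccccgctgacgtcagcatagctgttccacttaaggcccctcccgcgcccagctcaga
PGK1: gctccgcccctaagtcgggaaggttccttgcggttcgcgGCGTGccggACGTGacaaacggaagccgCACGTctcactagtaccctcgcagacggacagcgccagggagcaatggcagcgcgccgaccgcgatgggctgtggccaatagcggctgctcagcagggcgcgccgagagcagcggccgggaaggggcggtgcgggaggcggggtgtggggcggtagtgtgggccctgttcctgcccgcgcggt
These lie at chr5:122078260-122078509, minus strand, for LOX, chr10:72273674-72273923, plus strand, for DDIT4, and chr10:131981924-131982173, minus strand, for BNIP3. EGLN3 is at chr14:33951075-33951324, minus strand, LDHA at chr11:18394313-18394562, plus strand and PGK1 at chrX:78103998-78104247, plus strand. LOX holds the letters at 4 places, DDIT4 at 3, BNIP3 at 5, and LDHA and PGK1 at 3 each. A match is a description of the letters only, and a window without a match says only that these letters are not in it.

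Genes near some of the 37 on the chromosome differed between the lines in the same direction. For each gene, the median log2 line difference of the 10 nearest measured genes on each side was taken before induction, and the number of these 20 neighbours past the threshold in the gene's own direction was counted. Over all genes 10.8% passed as higher and 10.5% as lower in the mutant line before induction. Neighbours of EGLN3 had a median of 0.44 with 15 of 20 higher, those of ALDOC 0.37 with 15, and those of LOX 0.35 with 12. For P4HA2 the values were 0.29 and 12, for ENO1 0.25 and 11, and for EGLN1 0.25 and 11. LOX and P4HA2 both lie on chromosome 5, whose measured genes had a median difference of 0.25. PLOD1 and HIF1A stood between, with neighbour medians of 0.14 and 0.12 and 8 and 7 neighbours higher. Around NDRG1, PDK1, ADM, BNIP3, BNIP3L, DDIT4 and VHL the medians were -0.08 to 0.02, with 0 to 3 neighbours higher. The DNA copy number of the lines was not measured.

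**Figure D4:**
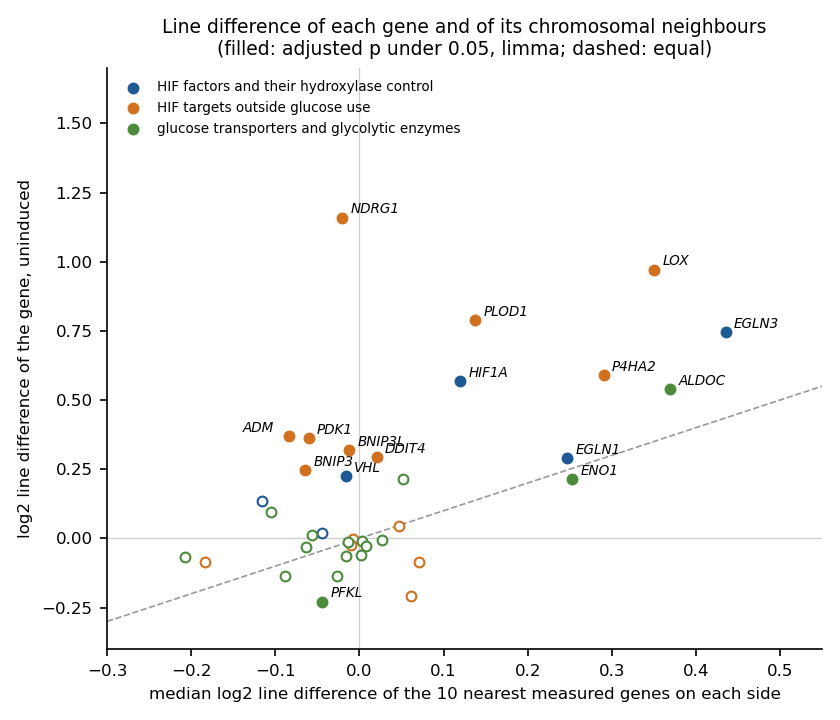
Log2 line difference of each of the 37 genes before induction (vertical axis, mutant minus WT) against the median log2 line difference of its 10 nearest measured genes on each side (horizontal axis), coloured by role, filled where the adjusted p was under 0.05; the dashed line marks a gene that differs as much as its neighbours. EGLN1 and ENO1 sit close to that line, EGLN3, ALDOC, LOX and P4HA2 lie to the right and above it, and NDRG1, at 1.16, stands over neighbours with a median of -0.02.

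With the neighbour median subtracted from each gene, a comparison added after seeing the data, 15 of 37 genes passed before and 13 after induction, against 17.2% and 18.3% of all genes in that form. The median was subtracted as a fixed value, so its own error, from the same arrays, is not counted in these adjusted p. HIF1A was still higher by 0.45 and 0.62 on the log2 scale, NDRG1 by 1.18 and 1.26, LOX by 0.62 and 0.57, and PLOD1 by 0.65 and 0.65. P4HA2 (by 0.30 and 0.25), ADM, PDK1, BNIP3, BNIP3L, DDIT4 and VHL passed in both states as well, and SLC2A3 after induction. EGLN1 was left with 0.04 and 0.00, ENO1 with -0.04 and -0.00, and ALDOC with 0.17 and 0.14, none of which passed. EGLN3 kept 0.31 before induction (adjusted p of 0.00874, limma) and 0.18 after it, the latter not past the threshold (adjusted p of 0.0866). PFKL passed after induction and not before it. Before induction EPAS1 at 0.25, PKM at 0.20 and P4HA1 at -0.27 passed in this form and not without the subtraction.

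Pairs of related genes compared within the same arrays showed which isoforms differed more between the lines. The log2 level of HIF1A minus that of EPAS1 was 0.43 higher in the mutant line before induction and 0.74 higher after it. EGLN3 minus EGLN1 was 0.46 and 0.33 higher, ALDOC minus ALDOA 0.60 and 0.62, ENO1 minus ENO2 0.24 and 0.18, and SLC2A3 minus SLC2A1 0.20 and 0.39. PFKL minus PFKM differed by -0.16 and -0.28, and PFKL minus PFKP by -0.22 and -0.42. In all of these pairs the 3 mutant arrays lay apart from the 3 WT arrays in each state. For BNIP3L minus BNIP3 (0.07 and -0.01) and HK2 minus HK1 (0.00 and -0.04) they overlapped. These differences were described and not tested, and they rest on the same values as the line differences given above.

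Other genes of the same pathways were read from lists by function. None of the measured genes in these 4 lists passed on induction in either line, and none in the difference of the responses (limma). Of 14 HIF pathway regulators, 4 were lower in the mutant line before induction and 0 higher (28.6%, against 21.4% of all genes and 10.5% lower). This share is near that of all genes. They were ARNT2, an alternative partner of the alpha subunits (0.582 times the WT level, adjusted p of 6.95e-05, limma), SIAH1, a ubiquitin ligase that acts on the EGLN hydroxylases (0.741, with a neighbour median of -0.43 on the log2 scale, with 13 of 20 lower, against its own difference of -0.43), the coactivator CREBBP (0.818) and the SUMO protease SENP1 (0.820). After induction ARNT2, CREBBP and SENP1 were lower and the VHL complex gene ELOC was higher, at 1.16-fold. ARNT2 had log2 levels of 7.57, 7.63 and 7.76 in the uninduced WT and 6.83, 6.98 and 6.81 in the uninduced mutant arrays, well apart, and its difference was opposite in sign to that of HIF1A.

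Of 36 further HIF targets, 9 were higher and 0 lower in the mutant line before induction (25.0%), and 9 were higher and 1 lower after it (27.8%). Over all genes 21.4% and 21.6% passed, with 10.8% higher in each state, so the share that passed was near that of all genes and the calls lay mostly in 1 direction, a split that was not tested. FLT1, a receptor for VEGF, was 1.69-fold and 1.75-fold higher (adjusted p of 2.92e-05 and 2.02e-05, limma). WSB1, a ubiquitin ligase component, was 1.42-fold and 1.58-fold higher, the secreted hormone gene STC2 1.34-fold and 1.56-fold, and the ephrin gene EFNA3 1.34-fold and 1.20-fold. Before induction the neighbours of STC2 had a median log2 difference of 0.29 with 12 of 20 higher, those of WSB1 0.19 with 9, those of FLT1 0.06 with 2 and those of EFNA3 0.03 with 4.

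Of 14 further genes of glycolysis and lactate handling, 1 was higher and 2 lower before induction, and 1 was higher and 3 lower after it. These shares, 21.4% and 28.6%, are the same as or near the 21.4% and 21.6% of all genes. The higher one was SLC16A7, the monocarboxylate transporter MCT2, which carries lactate and pyruvate across membranes. Its log2 levels were 5.64, 5.72 and 5.47 in the WT and 7.79, 7.55 and 7.74 in the mutant line before induction, and 5.56, 5.89 and 5.74 and 7.85, 7.97 and 7.70 after it. The WT arrays lay below 6.39, the median over probe sets, and the mutant arrays well above it. The log2 difference was 2.08 and 2.11 (adjusted p of 1.86e-07 and 1.41e-07, limma). The WT values are near the group means of the leukocyte marker CD14, 5.27 to 5.46, and are not shown to be above background, so no fold is given. PGM1, which links glycogen to glycolysis, was lower at 0.815 and 0.842 times the WT level.

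Of 18 genes for pyruvate entry and the citric acid cycle, 4 were higher and 1 lower in each state (27.8%, near the 21.4% and 21.6% of all genes). DLAT, a subunit of the pyruvate dehydrogenase complex that PDK1 inhibits, was at 8.84, 8.80 and 8.85 in the WT and 9.64, 9.61 and 9.66 in the mutant line before induction, a 1.75-fold difference (adjusted p of 2.57e-06, limma). SUCLA2, a subunit of succinyl-CoA synthetase, was at 9.91, 9.98 and 10.03 against 9.15, 9.14 and 9.15, and at 0.565 times the WT level (adjusted p of 9.58e-07). The lines did not overlap for either gene, and the chromosomal neighbours of both differed in the same direction, with medians of 0.54 for DLAT and -0.60 for SUCLA2. SDHA, the flavoprotein subunit of succinate dehydrogenase, was 1.25-fold and the mitochondrial pyruvate carrier gene MPC2 1.18-fold higher before induction. ERO1A itself, read before induction, was lower in the mutant line, at 0.740 times the WT level (adjusted p of 0.000454, limma), opposite in direction to NDRG1, LOX and HIF1A. Both lines carry the transgene, and the ERO1A probe set is not known to separate the endogenous from the introduced RNA.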

How the data were processed

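RNA from 12 cultures was measured on Affymetrix arrays after whole-transcript labelling (per the labels' protocols). The authors deposited log2 levels, 1 column per array, for which the submitters' processing notes name RMA. At the probe level that method gives every array the same distribution, which hides any shift shared by most genes. Its version is not given in the sources used here. Deposited values run from 1.055 to 14.096, from which the unstated log base was inferred. Of 32321 probe sets, 19158 carry 1 symbol in the platform annotation, 1388 several and 11775 none; 18376 of 18404 genes were found in RefSeq's GRCh38.p14 gene table.

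A group-means model over all 12 arrays was fitted per gene (limma 3.58.1, R 4.3.3), with two-sided tests and Benjamini-Hochberg adjustment over all genes at 0.05. Intervals are 95%, and the number of arrays limits their precision. The steps were tested on simulated data. The 38 genes and the lists were chosen with earlier results of these data known. The naming rule was to give all of the 38 genes, array values for those past the threshold, ERO1A, and up to 4 genes of largest change per list. In the WT line, same-letter arrays deviated together from their groups (r of 0.391, 0.139 and 0.246). In the mutant line they did not (r of 0.117, -0.143 and -0.0192). Between the lines the r of same-letter arrays was 0.32, 0.144 and -0.126 with induction and -0.123, -0.147 and 0.0893 without. The main model held no replicate block. Same-letter arrays were taken as matched, from the data alone, only in the alternatives with a block. Alternatives were the replicate block, arrays centred on medians, dim genes left out, probe sets averaged per gene, a trended robust prior, weights per array, unmoderated analysis of variance, the arrays of a comparison alone, the chromosome median subtracted, and each array left out. Neighbour subtraction, leaving out replicate A of the uninduced WT and replicate B of the induced mutant arrays together, and a block in the WT line alone were added after seeing the data. Figures were drawn with matplotlib 3.10.9.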

Additional observations from a re-analysis of the deposited data

How the results depend on the processing

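None of the 37 genes passed in either induction comparison or in their difference under any alternative run, the replicate block included (0 genes). Between the lines, 14 to 20 of them passed before and 13 to 18 after induction over the alternatives, 16 in each state with the replicate block, and 14 to 18 and 15 to 16 with 1 array left out. HIF1A, NDRG1, LOX, PLOD1, P4HA2, ADM, PDK1, BNIP3L and DDIT4 kept their call in both states in all 23 alternatives. SLC2A3, P4HA1, HK1, HK2, PKM, TPI1 and EPAS1 before induction, and ALDOA, TPI1 and VHL after it, passed under at least 1 alternative and not in the main comparison. With the neighbour median subtracted ENO1 turned from higher to -0.040 before and -0.0035 after induction, neither past the threshold. ENO1 after induction also missed it with the arrays of the comparison alone. With the chromosome median subtracted PFKL passed in neither state.

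Counts over all genes depended more on the setting. For induction in the WT line 21 genes passed, but 43 with a trended robust prior, 153 with array weights, 1 with its arrays alone, 1 with a block in that line alone, 13 without replicate A of the uninduced WT and B of the induced mutant arrays together, and 9, 12 and 11 without replicates B of the uninduced, B of the induced and C of the induced WT arrays. In the mutant line 60 passed, but 91 without dim genes, 105 with the trended prior, 20 with its arrays alone, and 38, 36 and 37 without replicates A of the uninduced, B of the uninduced and B of the induced mutant arrays. The difference of the responses held 0 genes, but 7 without dim genes, 9 with the trended prior and 4 with array weights. Between uninduced lines 3934 passed, and 6643 with array weights. TPI1 has a second, dimmer probe set, whose line differences of -0.14 and -0.33 did not pass either.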
